A study of Rattus norvegicus with 9 samples.

Results

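The 47 genes described here carry symbols of cytosolic ribosomal proteins, 33 of the large subunit and 14 of the small subunit. They are among 14217 genes with a probe set of their own. They were chosen by symbol alone: Rpl or Rps and a number with an optional suffix, or Rplp0 to Rplp2, leaving out the Rps6k kinases, symbols with -ps and locus-number symbols. Of them 6 are paralogs of another ribosomal protein gene (Rpl26l1, Rpl39l1, Rpl3l, Rpl7l1, Rps27l and Rps4y2). The RNA came from pancreatic islets of Wistar rats, from 4 lean rats on standard chow and 5 obese rats given a high-caloric cafeteria diet over 30 days. Islets were freed by collagenase digestion in both groups, and the labels name no mutant allele, drug, age or sex. Each sample is titled as a rat, but the labels do not say whether islets were pooled, so p-values speak of the spread among these 9 samples, which may be technical in part. Expression was measured on Affymetrix Rat Genome 230 2.0 arrays, 1 per sample, as log2 values per probe set, and 5 members had a further probe set besides the brightest, which is used here.

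The cytosolic ribosome joins a small subunit, which reads the messenger RNA, to a large subunit, which links the amino acids and lets the new chain out through a tunnel. Messenger RNAs of ribosomal proteins typically begin with a C and a run of pyrimidines, the terminal oligopyrimidine (TOP) tract, through which mTOR and Larp1 control their translation. Beta cells of the islet devote much of their protein synthesis to proinsulin.

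The tract can be seen at the annotated starts of members that the results turn on. The sequences are from RefSeq, build GRCr8, on the strand of the gene, with 25 bases before the first listed start and 20 bases from it on. Capitals mark a C followed by at least 4 pyrimidines that begins within 5 bases of the start. The first 8 windows hold such a tract and the last 4 do not. This rests on the first listed start alone, and whether islets use that start was not tested. Rps3a is shown as the bright member highest in cafeteria replicate 3 against the other cafeteria arrays, and Rps27l as the paralog with the largest difference. The windows are chr12:46718371-46718415 (minus strand) for Rplp0, chr5:168117936-168117980 (plus) for Rpl22, chr8:129163595-129163639 (plus) for Rpl14 and chr8:73566452-73566496 (plus) for Rpl4. Those of Rpl39, Rps24, Rps28 and Rps3a are chrX:121195877-121195921 (minus), chr16:96492-96536 (plus), chr7:15311314-15311358 (minus) and chr2:173827023-173827067 (minus). Those of Rpl6, Rpl24, Rps6 and Rps27l are chr12:41011671-41011715 (minus), chr11:58128386-58128430 (minus), chr5:106420521-106420565 (minus) and chr8:76443633-76443677 (plus).
Rplp0: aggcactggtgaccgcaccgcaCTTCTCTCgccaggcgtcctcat
Rpl22: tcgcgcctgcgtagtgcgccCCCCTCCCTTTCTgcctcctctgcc
Rpl14: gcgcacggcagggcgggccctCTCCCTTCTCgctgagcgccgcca
Rpl4: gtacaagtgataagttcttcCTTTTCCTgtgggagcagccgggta
Rpl39: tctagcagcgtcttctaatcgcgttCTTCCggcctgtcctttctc
Rps24: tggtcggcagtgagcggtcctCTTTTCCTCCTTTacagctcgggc
Rps28: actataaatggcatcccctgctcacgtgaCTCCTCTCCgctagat
Rps3a: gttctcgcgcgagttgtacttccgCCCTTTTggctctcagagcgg
Rpl6: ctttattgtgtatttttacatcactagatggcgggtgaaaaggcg
Rpl24: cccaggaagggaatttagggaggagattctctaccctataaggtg
Rps6: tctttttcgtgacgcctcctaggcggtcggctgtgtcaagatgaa
Rps27l: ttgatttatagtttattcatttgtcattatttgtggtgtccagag

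A start was matched for 42 of the 47 members. The tract was found in 22 of these (52.4%), against 17% of the first listed starts of 27457 genes. In the 250 bases before the start, on either strand, CCGGAAG was found in 7 of the 42 (16.7%, all genes 7.74%), GGGCGG in 25 (59.5%, all genes 32.4%), CCAAT in 8 (19%, all genes 34.3%) and TATAAA in 6 (14.3%, all genes 13.1%). A longer palindrome with CGCG at its centre, searched as well, was found in 4 (9.52%, all genes 0.393%), which were Rpl4, Rpl26, Rps6 and Rps28. A match describes the letters of this window only. Among the matched members with a mean log2 value above 9, 18 had a tract at the first listed start. Their median difference between the diets (cafeteria minus chow, log2) was -0.11, and that of the 15 without one there was -0.10.

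Most ribosomal protein genes had slightly lower means in cafeteria than in chow islets, and none passed the test. The difference was below 0 in 27 of the 33 large subunit genes and in 13 of the 14 small subunit genes, where 49.2% of all genes had a lower mean and 50.8% a higher one. Its median was -0.10 (a ratio of 0.932) in the large subunit, -0.11 (a ratio of 0.93) in the small subunit and 0.0025 over all genes. By limma with Benjamini-Hochberg adjustment over all probe sets, 0 members and 0% of all genes reached an adjusted p of 0.05. At an unadjusted p under 0.05 stood 1 member with a lower mean, Rpl6, and 1 with a higher mean, Rps27l, beside 6.7% of all genes (3.28% lower and 3.42% higher). The number of such members was 10 without cafeteria replicate 1, beside 1537 of all 14217 genes. With the acinar score as a covariate it was 0, beside 813 of all 14217 genes. In 0 members did the groups not overlap, a state found in 2.17% of all genes. Without cafeteria replicate 3 the large and small subunit medians were -0.043 and -0.050, and without chow replicate 1 -0.066 and -0.067. Without both, an alternative added after the data were seen, they were -0.024 and -0.026. Leaving out a high chow array and a low cafeteria array brings a negative median nearer 0 by construction. In the other direction, without cafeteria replicate 1 the large and small subunit medians were -0.13 and -0.14. With quantile normalization repeated the large subunit median was -0.061.

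**Figure D1:**
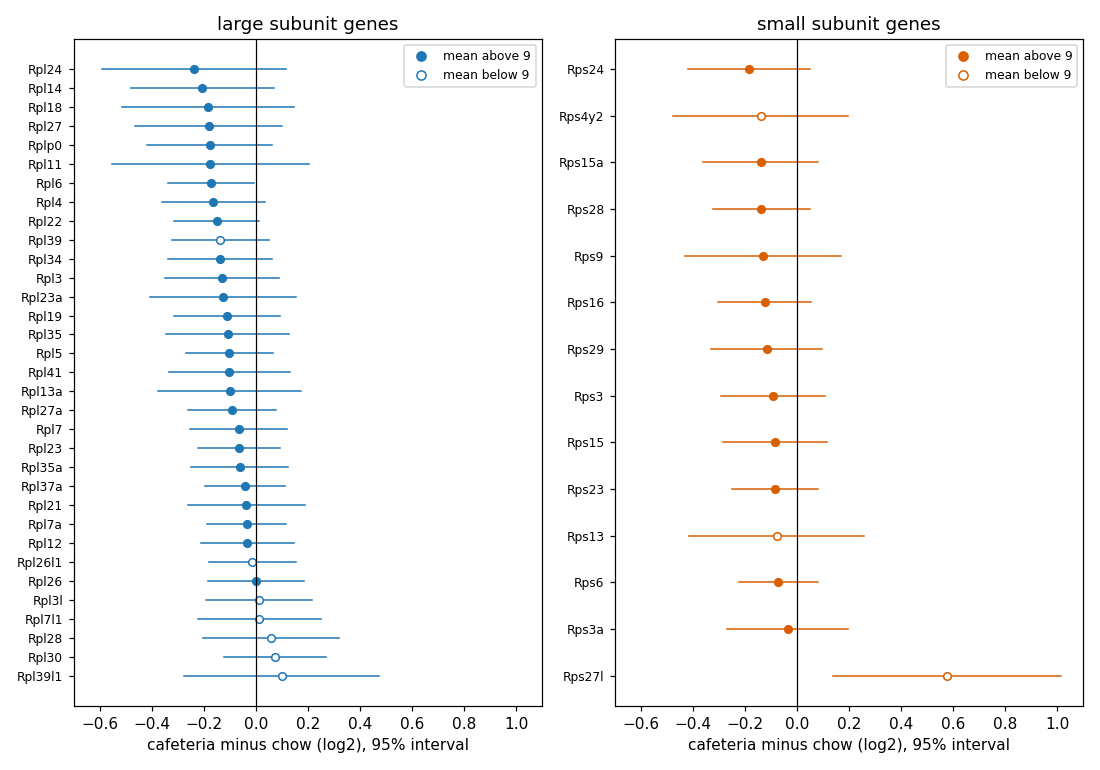
Difference between the diets (x axis, cafeteria minus chow, log2) for each of 33 large and 14 small subunit genes (y axis), with the 95% interval of the limma fit; filled points are probe sets with a mean above 9 and open points those below. The unadjusted intervals of Rpl6 and Rps27l leave out 0, and those of the other members include it.

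Bright probe sets had lower means more often than dim ones, but this was not tested. A mean over the 9 arrays above 9, a division made after the values were seen, was found in 37 members, 26 large and 11 small. Of these 36 had a negative difference, with a median of -0.11 and a range from -0.24 (Rpl24) to 0.00067 (Rpl26), and 1 (Rpl6) had an unadjusted p under 0.05. Among 1489 other genes with a mean above 9, not matched in brightness, 48.2% had a lower mean and 5.98% an unadjusted p under 0.05. Their median difference was 0.0048. The other 10 members had means of 3.89 to 7.62, where array medians were 5.28 to 5.32, and their median difference was 0.012, with 6 higher and 4 lower. Of the lower ones Rpl39 (-0.14) and Rps4y2 (-0.14) lay below the median of the bright members. All 6 paralogs were among the dim members, with a median of 0.012, so the division by brightness also set the paralogs apart. RMA values carry no detection call, and the brightness of a probe set does not rank a gene against another.

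**Figure D2:**
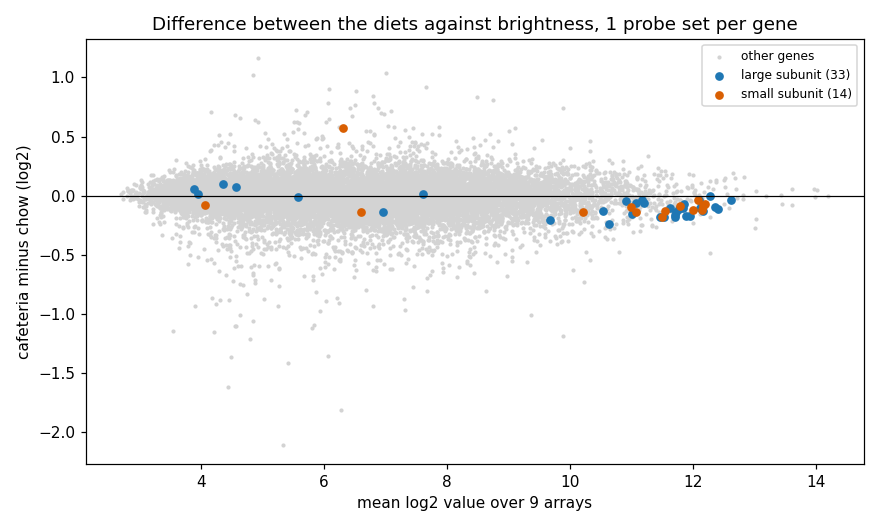
Difference between the diets (y axis, log2) against the mean log2 value over 9 arrays (x axis), 1 probe set per gene, with the large and small subunit genes in colour and other genes in grey. Members with a mean above 9 lie between -0.24 and 0.00067, within the spread of the other genes.

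In the large subunit, Rpl6 had the smallest p. Its log2 values were 12.04, 12.01, 11.93 and 11.90 in chow replicates 1 to 4 and 11.96, 11.79, 11.73, 11.69 and 11.82 in cafeteria replicates 1 to 5. Cafeteria replicate 1 lay within the chow range and the other cafeteria arrays below it. The difference was -0.17 (SE 0.075, 95% interval -0.34 to -0.0057, adjusted p = 0.844 by limma), and it lay between -0.21 to -0.14 with each sample left out.

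Rpl22, an RNA-binding protein of the large subunit, had values of 11.14, 11.14, 11.10 and 11.00 in chow and 11.09, 10.97, 10.82, 10.93 and 10.91 in cafeteria samples. Again only cafeteria replicate 1 reached into the chow range. The difference was -0.15 (SE 0.074, 95% interval -0.31 to 0.011, adjusted p = 0.844 by limma).

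Rpl4, which lines the exit tunnel, had values of 11.81, 11.89, 11.80 and 11.65 in chow and 11.81, 11.64, 11.40, 11.60 and 11.66 in cafeteria samples. Cafeteria replicate 3 was the lowest array, and the difference of -0.16 (SE 0.090) was -0.11 without it. Rpl39, a very small protein of the same tunnel, was measured by a dim probe set with values of 6.95 to 7.18 in chow and 6.79 to 7.03 in cafeteria samples, a difference of -0.14 (SE 0.084) that was -0.091 without chow replicate 3.

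Rplp0 forms the base of the stalk that recruits elongation factors. Its values were 11.83, 11.81, 11.85 and 11.70 in chow and 11.86, 11.68, 11.26, 11.62 and 11.68 in cafeteria samples. Cafeteria replicate 3 was the lowest array and cafeteria replicate 1 the highest of all 9. The difference of -0.18 (SE 0.11, adjusted p = 0.846 by limma) was -0.089 without cafeteria replicate 3. The other stalk proteins, Rplp1 and Rplp2, had no single-gene probe set in the annotation used here.

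The same array set the size of further differences. Rpl24, which bridges the subunits, had values of 10.79, 10.83, 10.89 and 10.53 in chow and 10.94, 10.62, 10.02, 10.58 and 10.45 in cafeteria samples, and its difference of -0.24 (SE 0.16) was -0.11 without cafeteria replicate 3. Rpl14, a protein of the large subunit surface, had 9.69 to 9.86 in chow and 9.20 to 9.93 in cafeteria samples, and its difference of -0.21 (SE 0.12) was -0.11 without that array. For Rpl34, with 11.68 to 11.94 in chow and 11.51 to 11.87 in cafeteria samples, the lowest array was cafeteria replicate 5, the highest chow replicate 1, and the difference of -0.14 (SE 0.090) was -0.086 without chow replicate 1.

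Rpl5 and Rpl11 join the 5S ribosomal RNA in one particle, and outside the ribosome they are known to bind Mdm2. Rpl5 had values of 12.32, 12.15, 12.12 and 12.09 in chow and 12.17, 12.10, 11.95, 12.02 and 12.10 in cafeteria samples, a difference of -0.10 (SE 0.075) that was -0.051 without chow replicate 1. Rpl11 had values of 11.80, 12.11, 12.19 and 12.08 in chow and 12.24, 12.03, 11.29, 12.01 and 11.79 in cafeteria samples, a difference of -0.18 (SE 0.17) that was -0.030 without cafeteria replicate 3 and -0.27 without cafeteria replicate 1. Chow replicate 1 was thus the highest chow array for Rpl5 and the lowest chow array for Rpl11. The array's control probe set for 5S ribosomal RNA had 5.71 to 6.31 in chow and 5.55 to 6.51 in cafeteria samples, lowest in cafeteria replicate 3. Rpl3, which reaches towards the peptidyl transferase centre, had 12.09 to 12.38 in chow and 11.81 to 12.26 in cafeteria samples, a difference of -0.13 (SE 0.099) that was -0.060 without cafeteria replicate 3 and -0.082 without chow replicate 1.

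In the small subunit, Rps24, needed for maturation of the ribosomal RNA precursor, had the most negative difference. Its values were 11.64, 11.66, 11.62 and 11.45 in chow and 11.65, 11.46, 11.10, 11.37 and 11.45 in cafeteria samples. Chow replicate 4 lay below 3 of the cafeteria arrays. The difference of -0.18 (SE 0.11, adjusted p = 0.844 by limma) was -0.11 without cafeteria replicate 3.

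Rps6, the substrate of the S6 kinases downstream of mTOR, had the smallest standard error of the 47 members. Its values were 12.30, 12.23, 12.28 and 12.12 in chow and 12.23, 12.12, 12.09, 12.15 and 12.22 in cafeteria samples, and the groups overlapped. The difference was -0.072 (SE 0.068, 95% interval -0.22 to 0.078), and -0.11 without chow replicate 4. Rps3, at the entry of the messenger RNA channel, differed by -0.093 (SE 0.090), and its lowest array was a chow sample, replicate 4. Without that array the difference of Rps3 was -0.17, and without chow replicate 1 -0.058.

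Cafeteria replicate 3 was the lowest array for Rps28, Rps15a, Rps16, Rps29 and Rps23, whose unadjusted p lay between 0.128 (Rps28) and 0.287 (Rps23). Rps28 differed by -0.14 (SE 0.084), and by -0.094 without that array. Rps15a differed by -0.14 (SE 0.099), by -0.070 without it and by -0.092 without chow replicate 1. Rps16, close to the decoding site, differed by -0.12 (SE 0.081), by -0.083 without it and by -0.074 without chow replicate 1. These 3 genes kept their sign without the array, as did Rps29 and Rps23, a protein of the decoding centre. Rps29 differed by -0.12 (SE 0.096), and by -0.040 without it. Rps23 differed by -0.084 (SE 0.075), and by -0.047 without it.

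**Figure D3:**
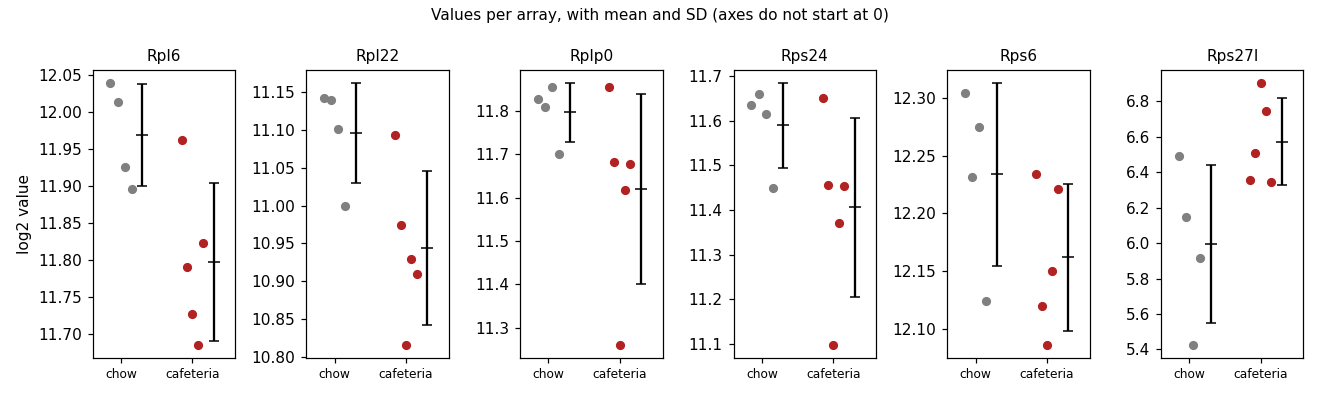
Log2 value per array (y axis, not starting at 0) in the 4 chow and 5 cafeteria samples (x axis) for Rpl6, Rpl22, Rplp0, Rps24, Rps6 and Rps27l, with the mean and SD of each group beside the points. The groups overlap in all 6 genes, and Rps27l alone of these has the higher mean under the cafeteria diet.

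The remaining bright members other than Rpl26 (0.00067) also had negative differences, and for many the size or the sign turned on 1 array. Rpl18, Rpl27, Rpl23a, Rpl19, Rpl35, Rpl41, Rpl13a, Rpl27a, Rpl23, Rpl35a, Rpl37a, Rpl21, Rpl7a and Rpl12 of the large subunit differed by -0.18 (Rpl18, SE 0.15) to -0.033 (Rpl12, SE 0.081). Without chow replicate 1 the sign turned in Rpl13a (0.015), Rpl35a (0.0065), Rpl21 (0.065), Rpl7a (0.0063) and Rpl12 (0.024). Without cafeteria replicate 3 Rpl18 differed by -0.043, Rpl27 by -0.063, Rpl23a by -0.042, Rpl19 by -0.048, Rpl35 by -0.035, Rpl41 by -0.014, Rpl23 by -0.025 and Rpl37a by -0.0016. In the small subunit Rps9 differed by -0.13 (SE 0.13), Rps15 by -0.087 (SE 0.091) and Rps3a by -0.036 (SE 0.10). Without cafeteria replicate 3 Rps9 differed by -0.0078 and Rps15 by -0.021, and without chow replicate 1 Rps3a differed by 0.051. The probe sets of Rpl28 (mean 3.89), Rpl30 (mean 4.58) and Rps13 (mean 4.07), all dimmer than the array medians, differed by 0.057, 0.072 and -0.079. The sign turned for Rpl28 without chow replicate 2 (-0.060) and for Rps13 without chow replicate 1 (0.021), and Rpl30 differed by 0.0010 without chow replicate 3.

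Rps27l, a paralog of Rps27 known as a p53 target, had the opposite sign. Its values were 6.49, 6.15, 5.43 and 5.92 in chow and 6.36, 6.51, 6.90, 6.75 and 6.34 in cafeteria samples. Chow replicate 1 lay above 2 of the cafeteria arrays, and cafeteria replicate 3 was the highest of all. The difference was 0.58 (SE 0.20, 95% interval 0.14 to 1.01, a ratio of 1.49, adjusted p = 0.844 by limma). It was 0.39 without chow replicate 3 and 0.74 without chow replicate 1.

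The other paralogs differed little against their errors. Rps4y2 differed by -0.14 (SE 0.15), and by -0.017 without cafeteria replicate 3. Rpl39l1 differed by 0.098 (SE 0.17), where Rpl39 had -0.14. Rpl3l, a form of Rpl3 known from muscle, differed by 0.011 (SE 0.091) at a mean of 3.95. Rpl26l1 and its parent Rpl26 differed by -0.014 (SE 0.075) and 0.00067 (SE 0.083). Such close copies, and processed pseudogenes, can share probes.

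Further probe sets did not always repeat the sign of the brightest. For Rpl7, an RNA-binding protein of the large subunit, the bright probe set (mean 11.85) differed by -0.067 (SE 0.085), by -0.0096 without chow replicate 1 and by -0.13 without chow replicate 4. A dim one had values of 6.10, 5.16, 5.12 and 5.63 in chow and 5.70, 6.09, 6.88, 6.49 and 6.33 in cafeteria samples, a difference of 0.80 (SE 0.25, adjusted p = 0.844 by limma). Chow replicate 1 overlapped with the cafeteria arrays there. The further probe sets of Rpl14 (0.075), Rpl3 (0.014) and Rpl7l1 (-0.082, against 0.012 for its brightest) also had the opposite sign, and that of Rps24 (-0.079) the same. Another 30 probe sets listed several ribosomal protein genes or copies at once, and 27 of them had a negative difference, with a median of -0.087.

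Single arrays differed as much as the diets. Averaged over its members and set against the 9-array means, the large subunit stood at 0.049 ± 0.054 (SD, n = 4) in chow and -0.039 ± 0.12 (SD, n = 5) in cafeteria samples. The small subunit stood at 0.034 ± 0.089 and -0.027 ± 0.11. Cafeteria replicate 3 was lowest for both, at -0.21 and -0.20. Chow replicate 1 stood at 0.11 and 0.15, and cafeteria replicate 1 at 0.12 and 0.090. The average of the large subunit minus that of the small lay between -0.041 and 0.047 in the 9 arrays.

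**Figure D4:**
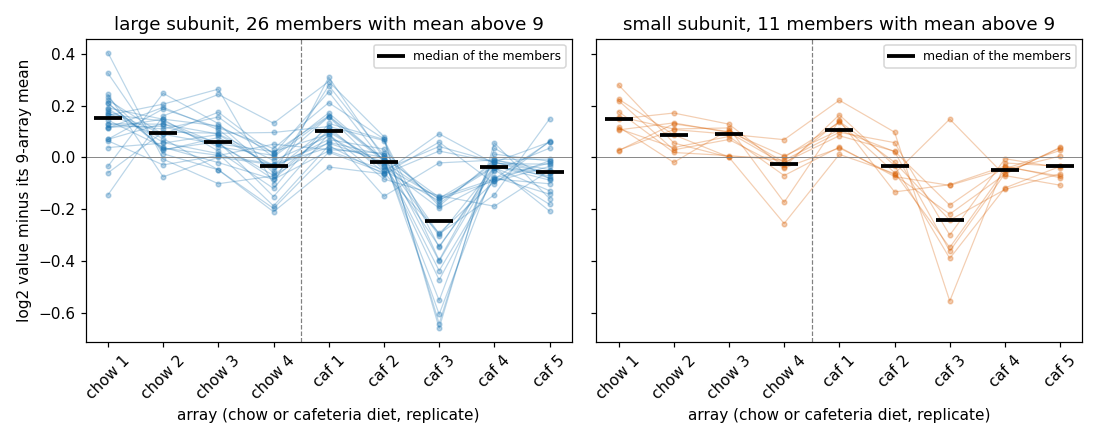
Log2 value minus the 9-array mean of the gene (y axis) in each array (x axis) for the 26 large and 11 small subunit genes with a mean above 9; a thin line joins the values of 1 gene, and the bar is the median over genes. Cafeteria replicate 3 has the lowest median in both subunits, and cafeteria replicate 1 lies among the chow arrays.

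Among the 37 bright members, cafeteria replicate 3 was the lowest array in 28 and chow replicate 4 in 7. Chow replicate 1 was the highest in 21 and cafeteria replicate 1 in 11. With group means removed, the median Pearson correlation between pairs of the 37 genes was 0.677 over the 9 arrays. Between pairs of the 1489 other genes with a mean above 9, not matched in brightness, it was 0.0315. These genes were measured on the same arrays and share RNA and hybridization, so this is a description without a test.

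Cafeteria replicate 3 was not lower in every member. Against the mean of the other cafeteria arrays it differed by a median of -0.23 in the 37 bright members. In the other genes with a mean above 9, not matched in brightness, the median was -0.011. The members furthest below were Rpl11 (-0.73), Rpl18 (-0.70), Rpl24 (-0.62), Rps9 (-0.62) and Rpl27 (-0.59). It lay above that mean in 6, Rpl7, Rpl12, Rpl7a, Rpl21, Rpl26 and Rps3a, by up to 0.20. These genes were singled out after their values were seen.

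Other measures of the arrays also varied, and not all of them in the order of this pattern. The hormone genes that define islets were among the brightest, with Ins2 at 14.13 to 14.24 in chow and 14.16 to 14.23 in cafeteria samples and Gcg at 13.59 to 13.70 and 13.44 to 13.77. Acinar markers had higher means in 14 of 15 measured genes and averaged -0.76 to 0.19 in chow and -1.08 to 0.75 in cafeteria samples, highest in cafeteria replicate 3. Immune markers had lower means in 13 of 14 and averaged -0.058 to 1.17 and -0.39 to -0.043. Markers of alpha, delta and PP cells had lower means in 8 of 8. They averaged 0.036 to 0.33 in chow samples, highest in chow replicate 1. In cafeteria samples they averaged -0.37 to 0.25, highest in cafeteria replicate 1 and lowest in cafeteria replicate 5, with -0.24 in cafeteria replicate 3. Ductal markers had lower means in 6 of 9 and averaged -0.31 to 0.73, highest in chow replicate 1, and -0.16 to -0.0023. Beta cell markers averaged -0.021 to 0.071 and -0.055 to 0.049. Endothelial markers, lower in 8 of 9, averaged -0.031 to 0.16 and -0.23 to 0.094, and stellate and fibroblast markers, lower in 5 of 10, -0.10 to 0.18 and -0.51 to 0.37. Control probe sets at the 3′ end minus those at the 5′ end, a measure of RNA quality, gave 1.42 to 1.80 in chow, highest in chow replicate 1, and 1.21 to 1.74 in cafeteria samples, highest in cafeteria replicate 3 and lowest in cafeteria replicate 1. With the acinar score as a covariate the large and small subunit medians were -0.11 and -0.11, and with RNA quality -0.10 and -0.11. The part of the other markers in the result was not tested, and in bulk islets fewer cells of a type and less RNA per cell cannot be told apart.

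Proteins that assemble ribosomes had mostly higher means. Of 99 listed assembly and nucleolar factors 96 were measured, and 82 had a positive difference, with a median of 0.097 (a ratio of 1.07). None passed an adjusted p of 0.05 by limma, and 9 (9.38%, all genes 6.7%) had an unadjusted p under 0.05, all of them higher. In 2 (2.08%, all genes 2.17%) the groups did not overlap, a share near that of all genes. Those were Tsr1 and Ltv1, late assembly factors of the small subunit. Tsr1 had 8.28 to 8.50 in chow and 8.56 to 8.78 in cafeteria samples, a difference of 0.26 (SE 0.077). Ltv1 had 7.05 to 7.20 and 7.22 to 7.54, a difference of 0.25 (SE 0.079). Rrp15, which acts in large subunit assembly, differed by 0.38 (SE 0.11) with overlapping groups. Averaged over the list, cafeteria replicate 3 was the highest array, at 0.10. The median was 0.079 without that array and 0.12 without chow replicate 1, the highest chow array. These moves go in opposite directions, and without both arrays the median was 0.099.

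**Figure D5:**
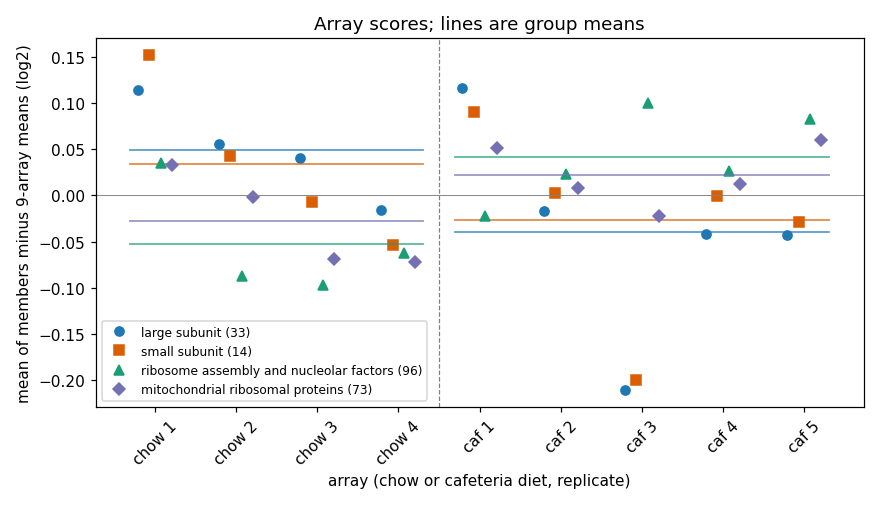
Mean over the genes of a list of the log2 value minus the 9-array mean (y axis) in each array (x axis), for the large subunit (33 genes), the small subunit (14), assembly and nucleolar factors (96) and mitochondrial ribosomal proteins (73), with lines at the group means. Cafeteria replicate 3 is the lowest array for both cytosolic subunits and the highest for assembly factors.

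Mitochondrial ribosomal proteins, which translate the few messages of the mitochondrial genome, had higher means in 52 of 73 genes, with a median of 0.053. An unadjusted p under 0.05 was found in 5 (6.85%), all higher, a share near the 6.7% of all genes. Mrps28 differed by 0.23 (SE 0.073) and Mrpl13 by 0.22 (SE 0.073). Mrps18c differed by 0.31 (SE 0.10), with the opposite sign in its 2 other probe sets. Whether these lists differ from the cytosolic ribosomal proteins was not tested.

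Translation factors had medians close to 0. Of 36 measured initiation factors 20 were higher in mean and 16 lower, with a median of 0.017. Eif3d, a subunit of eIF3, differed by 0.30 (SE 0.089), and Eif2s1, the alpha subunit of eIF2, by 0.25 (SE 0.11). Eif4g3, a scaffold of cap-dependent initiation, differed by -0.26 (SE 0.12), with the opposite sign in its other probe set, and by -0.17 without cafeteria replicate 3. Of 12 elongation and release factors 5 were higher and 7 lower, with a median of -0.027. Eef1a2, which delivers aminoacyl-tRNA, differed by -0.64 (SE 0.27), and by -0.42 without cafeteria replicate 3, its lowest array. Eef2, the translocase, differed by -0.25 (SE 0.15), with the opposite sign in its other probe set, by -0.16 without that array and by -0.15 without chow replicate 2. Gspt2, a release factor, differed by 0.14 (SE 0.10), and by 0.077 without cafeteria replicate 3.

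RNA polymerase I, which transcribes the large ribosomal RNA precursor, and its factors had 7 of 14 genes higher and 7 lower, with a median of 0.0090. Polr1b, its second-largest subunit, differed by 0.29 (SE 0.081). Ubtf, its upstream binding factor, differed by -0.18 (SE 0.11), and by -0.081 without cafeteria replicate 3, with the opposite sign in 1 of its 4 probe sets. Polr1d differed by -0.086 (SE 0.070), with the opposite sign in its other probe set, and by -0.054 without chow replicate 1. Of 20 regulators of TOP messenger RNAs and ribosome genes 11 were higher and 9 lower, with a median of 0.018. By limma 0 of them had an unadjusted p under 0.05, beside 6.7% of all genes. Rptor, the scaffold of mTORC1, differed by 0.17 (SE 0.079), and Rps6kb1, an S6 kinase, by 0.25 (SE 0.12), and by 0.16 without cafeteria replicate 3. Myc, a transcription factor of ribosome genes, differed by -0.61 (SE 0.28), and by -0.33 without chow replicate 3.

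Rpsa and Rack1, proteins of the small subunit with symbols outside the rule, also had lower means under the cafeteria diet. Rpsa had values of 11.26, 11.30, 11.29 and 11.13 in chow and 11.33, 11.05, 10.74, 11.10 and 11.07 in cafeteria samples, a difference of -0.19 (SE 0.11) that was -0.11 without cafeteria replicate 3. Rack1 had 11.51, 11.24, 11.29 and 11.26 and 11.30, 11.14, 10.97, 11.13 and 11.31, a difference of -0.15 (SE 0.092) that was -0.092 without chow replicate 1. Cafeteria replicate 3 was the lowest array for both.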

How the data were processed

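The deposited table holds log2 values per probe set. RMA, R 2.7.0 and affy 2.0.1 are named in the submitters' processing notes, without their roles, and normalization of that kind removes a shift shared by most genes. Of 31099 probe sets 57 controls were left out. Of the other 31042, 20826 listed 1 gene (14217 genes), 436 several and 9780 none in the platform annotation, and 20758 were found in RefSeq's GRCr8 table by gene identifier. All 31042 were fitted with limma 3.58.1 in R 4.3.3 (lmFit, eBayes, no covariates, two-sided), and p-values were adjusted by Benjamini-Hochberg over all of them with a threshold of 0.05. On simulated data of 31042 probe sets 52 of 67 probe sets given a 1.5-fold change were recovered. The simulated noise was independent between probe sets, and no smaller change was given. Recovery of differences as small as those of the members was therefore not tested. Named genes were the 8 members per subunit and the 3 genes per list with the smallest p, a fixed set of members with all paralogs, and subunits outside the symbol rule. The members, lists and motifs were chosen with earlier results of these data known. Alternatives were each sample left out, scaling, probe set choice, brightness, the variance model, array weights and covariates. Python 3.11.15, numpy 2.4.6, pandas 2.3.3 and matplotlib 3.10.9 were used for counts and figures.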

Additional observations from a re-analysis of the deposited data

Results flagged for a closer look

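In 5 of 110 groups of arrays tested, 1 array lay far from the others of its group by Dixon's ratio, and chance flags about 1 in 20 groups. Rps3 was 10.82 in chow replicate 4, below the other chow arrays. The paralog Rpl26l1 was 5.41 in cafeteria replicate 5, below the other cafeteria arrays. Eif2s1 was 9.59 in chow replicate 1, above the other chow arrays. Mrps18c was 6.29 in chow replicate 2, below the other chow arrays. Mrpl13 was 8.46 in cafeteria replicate 4, above the other cafeteria arrays. Cafeteria replicate 3, the lowest array of most bright members, was far from its group by this ratio in 0 of the groups tested. The groups tested did not take in every bright member, so this does not clear the array. Rpl27, left out there, was 10.90 in cafeteria replicate 3 and 11.44 to 11.61 in the other cafeteria arrays. Rpl41, also left out, was 11.436 in that array and 11.825 to 11.952 in the others of its group.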

How the results depend on the processing

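No paired analysis was possible because the labels give no numbers that chow and cafeteria samples share. By limma 0 probe sets passed an adjusted p of 0.05 under every alternative run, and 952 genes had an unadjusted p under 0.05, 624 to 1537 with 1 sample left out and 1921 with RNA quality as a covariate. The subunit medians were below 0 in all 42 alternatives, between -0.13 and -0.0427 (large) and between -0.143 and -0.0501 (small) with 1 sample left out. Large subunit members with a higher mean numbered 6, and 3 to 9 with 1 sample left out, 2 among the brighter probe sets, 3 without paralogs, 1 with means above 9 and 11 without chow replicate 1 and cafeteria replicate 3. Small subunit members with a higher mean numbered 1, and 1 to 3 with 1 sample left out, 2 after repeated quantile normalization, 0 without paralogs, 0 with means above 9 and 4 without those 2 samples. The RNA polymerase I median of 0.0090 lay between -0.0471 and 0.0253 with 1 sample left out. Of the 47 genes named by rule, 27 were ribosomal protein members and the rest were not, and many were picked for a small p. Members outside that set are not counted here, and some, such as Rpl12 and Rps3a, turned their sign without chow replicate 1. Among the genes named by rule 41 kept their direction under every alternative run, and 6 reversed in some. Rpl26l1 was 0.00158 with array weights and -0.0562 to 0.0259 with 1 sample left out. Rpl3l was -0.0191 with the acinar score, -0.0468 with array weights, -0.0092 after repeated quantile normalization and -0.0263 to 0.0585 with 1 left out. Rpl7l1 was -0.0347 as a mean of probe sets, -0.0227 with RNA quality and -0.0485 to 0.0750 with 1 left out. Rpl26 was -0.0522 with the acinar score and -0.0650 to 0.0579 with 1 left out. Rpl39l1 was -0.0232 to 0.249 with 1 left out, and Rpl7 was 0.37 as a mean of both probe sets. The cause was not tested. The number of arrays limits the precision, with a median SE of 0.091 log2 over the members.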
